A study of Caenorhabditis elegans with 54 samples.

Results

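The str genes are a family of Caenorhabditis elegans genes for G protein coupled chemoreceptors, and they were followed here in small RNA and mRNA libraries from whole adult worms. Members were all gene names of the deposited count tables whose WormBase symbol is str- followed by digits, str-151 included, with sequence names translated through a gene name table. This gave 226 members among the 46003 names of the larger tables, of which RefSeq lists 193 as protein-coding and 33 as pseudogenes. The rule uses names only and no measured value, though it was set with earlier results of these data known.

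The study compared C. elegans mutants in small RNA pathways, with 30 small RNA libraries of 10 strains and 24 mRNA libraries of 8 of those strains, 3 libraries per strain and assay. The first set of 6 small RNA libraries held prg-1(n4357) and ergo-1(tm1860) single mutants. The labels name both 20 °C with 68 h of growth and 25 °C with 48 h for that set, without saying which animals had which. The second set, grown at 20 °C for 64 h, held 8 strains with both assays. It had deletion strains eri-6[e-f] (cmp261), sosi-1 (cmp262) and sosi-1 eri-6[e-f] (cmp263), each with mut-16 intact and each combined with mut-16(pk710). The remaining strains of that set were the prg-1(n4357); hrde-1(tm1200) and prg-1(n4357); ergo-1(tm1860) double mutants, which share the prg-1 mutation. No wild-type library is in either set, so every value is a comparison among mutants. Each library came from 8000 synchronised animals harvested whole at the first day of adulthood. One prg-1; ergo-1 small RNA library carries a label that calls it mRNA-selected, and it was kept as small RNA by its title.

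Chemoreceptors of this kind sit mostly in the cilia of sensory neurons and signal through G proteins, and a worm neuron typically makes many of them. The animal's chemosensory repertoire is encoded by several large families, of which str is one. In worms, 22G-RNAs are short antisense RNAs copied from target transcripts by RNA-dependent RNA polymerases and loaded onto worm-specific Argonautes. MUT-16 is the scaffold of mutator foci, where much of this copying takes place. PRG-1 is the Piwi protein that binds piRNAs, ERGO-1 is an Argonaute that binds 26G-RNAs, and HRDE-1 is a nuclear germline Argonaute that binds 22G-RNAs. The deposited counts do not separate small RNAs by length, first base or strand. Every small RNA value below is therefore the sum of all small RNA reads assigned to a gene.

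Total counts (in units of 1000000) ranged from 8.003 to 42.01 per small RNA library and from 13.22 to 93.98 per mRNA library. One prg-1; hrde-1 small RNA library, replicate 1, stood apart, with 18.99% of its counts on eri6.1 against at most 0.388% in every other library. Neuron markers (18 of 20 listed names in the files) summed to 256 to 378 counts per 1000000 counts (CPM) in every mRNA library, so neuronal RNA was present in all whole-animal samples. Sperm markers (44 genes) moved strongly between strains. Their summed mRNA was 55.5 to 111 CPM in eri-6[e-f], 262 to 343 CPM in sosi-1 and 128 to 131 CPM in the double deletion of sosi-1 and eri-6[e-f]. With mut-16 mutated the sums were 595 to 752, 904 to 1017 and 748 to 831 CPM in the same order, and they were 2834 to 3891 CPM in prg-1; hrde-1 and 1579 to 1844 CPM in prg-1; ergo-1. The part of these differences in the mRNA results below was not tested.

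The family was a small part of every library. It took 0.00536% of all small RNA counts in the first set, 0.0054% of small RNA counts in the second and 0.00206% of mRNA counts. In the first set 224 members were listed, 21 had no count in 6 libraries and 177 had fewer than 10 counts in all. In the second set 2 members had fewer than 10 small RNA counts over 24 libraries and 177 had fewer than 100. In the mRNA libraries 48 members had no count and 158 had fewer than 10. The low-count filter left 12 members for testing in the first set, 43 for small RNA in the second set and 5 for mRNA, so 212, 183 and 221 members were not tested. The tested members held 71.9%, 71.2% and 82.0% of the family's CPM in these 3 groups of libraries. A member could pass the filter only through a strain in which it was high, so the tested members are not a sample of the family.

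The genes str-150 and str-151 together carried most of the str small RNA in the prg-1 single mutant of the first set. Their counts could not be read separately. The estimated counts of both were equal in 5 of the 15 libraries where the pair had over 20 counts, and in 9 of them one gene had 0 and the other more than 10. The pair was therefore summed, a choice made after seeing the data. In the prg-1 libraries the pair had 39.9, 38 and 55.7 CPM. In the ergo-1 libraries it had 0.145, 0.275 and 0.366 CPM. All 3 prg-1 libraries lay far above all 3 ergo-1 libraries, and the pair was lower in ergo-1 by edgeR (log2 fold change −7.32 ± 0.26 SE, adjusted p = 7.41e-12, n = 3 per strain). The adjusted p is from edgeR's quasi-likelihood test with Benjamini-Hochberg adjustment over all features tested, and a gene is called where it is below 0.05 and the change is at least 2-fold.

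The other 10 members tested in the first set went the opposite way, with higher values in ergo-1 libraries. Counted as separate genes, 2 members were lower and 10 were higher of the 12 tested, against 15.5% lower and 30.3% higher over all 11746 features tested. No direction changed when libraries were scaled by size or to microRNAs, which moved the median log2 difference of all features from 0.04 to 0.36 and to 0.45. The members' median log2 difference was 4.20, or 4.10 with genes at 0 in 1 strain set at their bound. Since the filter keeps a gene that is high in 1 of the strains, these shares say nothing about the rest of the family.

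The gene str-8 had no count in the 3 prg-1 libraries and 6.61, 4.53 and 5.13 CPM in the ergo-1 libraries. Set against a floor of 3 counts over the prg-1 group, str-8 small RNA was at least 61.6-fold higher in ergo-1. The same held for str-245, with 0 counts in prg-1 and 2.03, 2.06 and 1.34 CPM in ergo-1, at least 20.5-fold higher. These 2 genes were thus seen only in the ergo-1 libraries of the first set, within a depth of 3 libraries per strain. The gene str-172 had 0.102, 0 and 0.0884 CPM in prg-1, 2 counts in all, and 5.52, 7.69 and 6.90 CPM in ergo-1. Its ratio was 115, with a 95% counting interval of 31.7 to 958 that covers counting error only.

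A further 7 members had ergo-1 values above prg-1 values in all libraries and are named here after their values were seen. The gene str-249 had 3.27, 5.15 and 5.07 CPM in ergo-1 against 0.204, 0.152 and 0 CPM in prg-1, and str-68 had 4.14, 5.01 and 3.91 CPM against 0.204, 0.0759 and 0.619 CPM. Their log2 differences were 5.16 ± 0.47 SE and 3.85 ± 0.41 SE. For str-227 the difference was 4.55 ± 0.55 SE and for str-54 it was 2.81 ± 0.57 SE. The genes str-214 and str-90 had 2 and 3 counts in prg-1, which gives ratios of 43 (95% counting interval 11.6 to 359) and 11 (3.52 to 55.4). The smallest difference was that of str-12, at 1.18 ± 0.41 SE (edgeR adjusted p = 0.0157). The str-12 call was lost without prg-1 replicate 2 (1.00) and without ergo-1 replicate 3 (1.09).

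**Figure D1:**
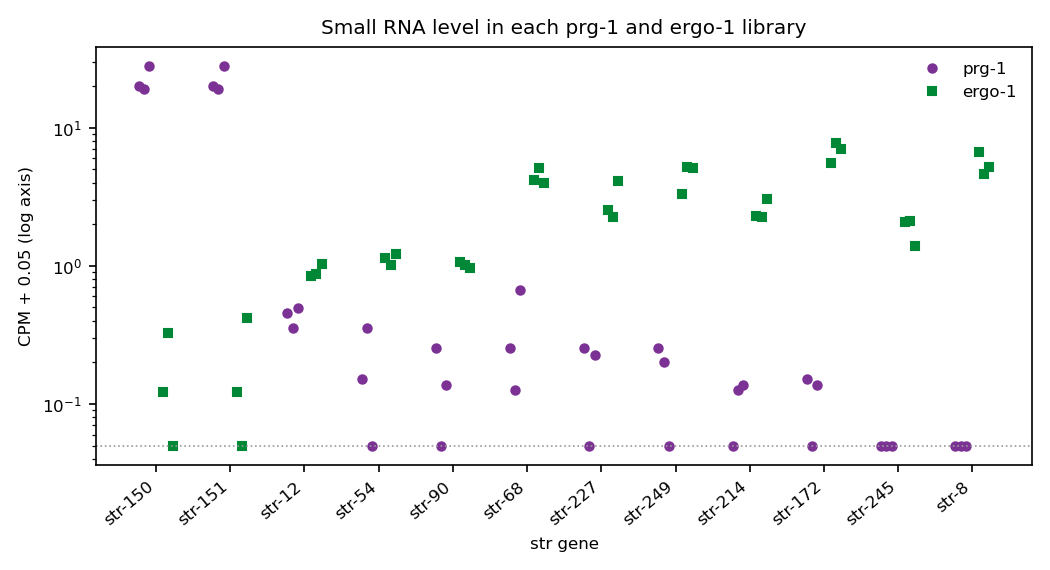
Small RNA of the 12 str genes tested in the first set, in CPM plus 0.05 on a log axis, with 1 point per library for prg-1 and ergo-1. The pair str-150 and str-151 lies higher in prg-1, and the other 10 genes lie higher in ergo-1. The strains do not overlap for any of the 12, a gap that was not counted over all features.

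The family's summed small RNA hid this exchange. It came to 53.8, 51.0 and 66.0 CPM in prg-1 and to 47.2, 52.9 and 51.5 CPM in ergo-1, ranges that overlap. The pair made up 74.2 to 84.5% of the sum in prg-1, while the 10 ergo-1-high genes made up 59.7 to 63.1% of it in ergo-1. These 10 genes together had a mean of 1.28 CPM in prg-1 and 31.1 CPM in ergo-1, values that describe how they were chosen.

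The second set shares no library with the first, so the same genes could be read there without having been picked on those libraries. In the deletion strains with mut-16 intact, both the pair and the 10 genes had small RNA. The 10 genes summed to means of 36.5 CPM in eri-6[e-f], 42.5 CPM in sosi-1 and 34.5 CPM in the double deletion. In the 2 prg-1 double mutants their means were 1.78 CPM with hrde-1 and 1.91 CPM with ergo-1. For 9 of the 10 genes, all 6 double mutant libraries were below all 9 deletion-strain libraries. The share of all features with such a gap was not counted. The 10 genes were chosen as low in the prg-1 mutant, and both double mutants also lack prg-1. These strains differ in more than 1 gene, and the difference between the deletion strains and the double mutants was not tested.

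The pair followed another order. It had 35.8, 49.2 and 29.8 CPM in prg-1; hrde-1, and 0.412, 0 and 0.217 CPM in prg-1; ergo-1. The test between these double mutants gave a log2 difference of −7.12 ± 0.30 SE (edgeR adjusted p = 5.25e-16), with all 3 prg-1; hrde-1 libraries above all 3 prg-1; ergo-1 libraries. Both strains lack prg-1, and they differ in hrde-1 as well as in ergo-1, whose parts cannot be told apart here. Without prg-1; hrde-1 replicate 1, the library that stood apart, the str-151 difference was −7.18. Among the deletion strains it had 26.4, 25.2 and 22.2 CPM in eri-6[e-f], 6.00, 5.74 and 7.37 CPM in sosi-1 and 10.5, 12.8 and 11.6 CPM in the double deletion. The 3 ranges do not overlap, and the largest difference among them was 1.94 on the log2 scale (edgeR adjusted p = 1.97e-07 for the pair).

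**Figure D2:**
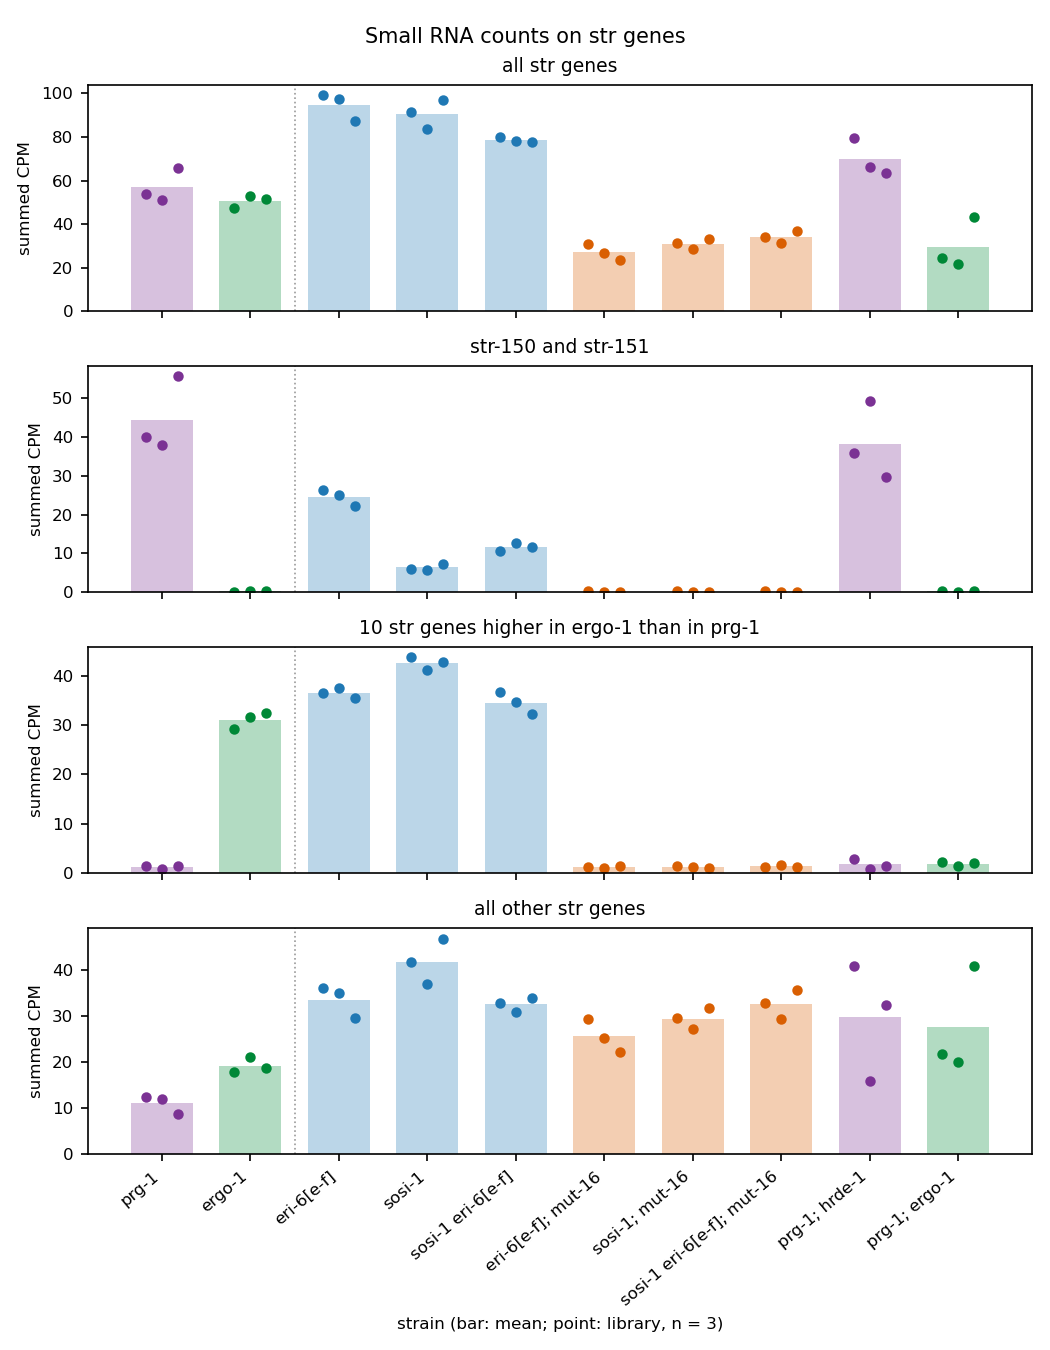
Summed small RNA of the str family in each of the 30 libraries, in CPM, split into the pair str-150 and str-151, the 10 genes higher in ergo-1 than in prg-1, and the remaining members. The 10 genes were chosen on the first set, whose panel only describes that choice. In the second set their sum has means of 34.5 to 42.5 CPM in the 3 deletion strains and of 1.27 to 1.91 CPM in the 5 other strains, and the pair is visible in the deletion strains and in prg-1; hrde-1.

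Loss of mut-16 lowered the small RNA of most tested members in all 3 deletion backgrounds. Of 43 members tested, 29 were lower and 4 higher in the mean of the 3 backgrounds, against 41.8% lower and 13.2% higher of 15380 features tested. The members' median log2 change was −2.53 and that of all features −0.33. Taken separately, 26 members were lower and 3 higher in eri-6[e-f], where 40.7% of all features were lower and 14.4% higher. In sosi-1 there were 27 lower and 3 higher members, where the background was 41.7% lower and 13.9% higher. In the double deletion 27 were lower and 6 higher, beside 38.7% and 12.3% of all features. The median changes of the members were −2.58, −2.72 and −2.07, and those of all features −0.41, −0.37 and −0.25. In all 3 backgrounds 24 members were lower and 2 higher, and no member was called in opposite directions. The share of all features called in all 3 backgrounds was not counted. Since the filter keeps a gene that is high in any of the strains, these shares say nothing about the members not tested. With no filter, 50 of 226 members were lower and 12 higher in the mean. Over all features 10293 were then called in either direction, against 8467 with the filter. The shares lower and higher of all features without the filter are not given here.

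Summed over the family, small RNA was 99.2, 97.5 and 87.1 CPM in eri-6[e-f] and 31, 26.5 and 23.7 CPM with mut-16 mutated. In sosi-1 it was 91.3, 83.8 and 96.9 CPM, and 31.2, 28.5 and 32.9 CPM without mut-16. In the double deletion it was 80.1, 78.3 and 77.6 CPM, and 34.2, 31.1 and 37 CPM without mut-16. Every mut-16 library was below every library of its own background. The 10 ergo-1-high genes summed to means of 1.27 to 1.42 CPM in the mut-16 strains, while the remaining members together had means of 33.5 and 25.6 CPM in eri-6[e-f] without and with the mut-16 mutation, 41.7 and 29.4 CPM in sosi-1, and 32.5 and 32.6 CPM in the double deletion.

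The pair had 0.0393 to 0.242 CPM in the 9 mut-16 libraries. Its log2 changes were −7.41 ± 0.33 SE in eri-6[e-f], −5.30 ± 0.31 SE in sosi-1 and −6.53 ± 0.32 SE in the double deletion. The mean of the 3 was −6.41 ± 0.18 SE (edgeR adjusted p = 1.51e-20). The 3 changes spanned 2.11 log2 units, a difference that missed the threshold (edgeR adjusted p = 0.0512).

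The gene str-8 had 4.74 to 6.55 CPM in the 9 libraries with mut-16 intact and 0 to 0.204 CPM in the 9 mut-16 libraries. Its mean log2 change was −6.45 ± 0.34 SE (edgeR adjusted p = 7.85e-15). The gene str-245 had 5.36 to 11.7 CPM and 0 to 0.226 CPM, a change of −6.43 ± 0.20 SE (edgeR adjusted p = 8.79e-21). The groups were wide apart for both genes. For str-172 the values were 8.13 to 11.9 CPM and 0.121 to 0.394 CPM, a change of −5.28 ± 0.15 SE (edgeR adjusted p = 1.71e-21).

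The 29 lower members count str-150 and str-151 as separate genes. With the pair summed, 28 of 42 were lower and 4 higher. The call of str-150 alone (−4.36 in the mean) was lost without eri-6[e-f] replicate 2 (−1.88) and without sosi-1 eri-6[e-f] replicate 2 (−1.19). For 20 of the 29 all 9 mut-16 libraries lay below all 9 others, a gap that was not counted over all features. Members named after their values were seen include str-177 at −5.79 ± 0.45 SE, str-249 at −4.80, str-68 at −4.69, str-101 at −4.66, str-214 at −4.28 and str-227 at −4.27. The fitted size for str-177 rests on 0, 1 and 2 counts with mut-16 mutated in eri-6[e-f], sosi-1 and the double deletion. In eri-6[e-f] its decrease was at least 14.2-fold. The smallest called decreases were those of str-54 at −1.39 ± 0.30 SE and str-238 at −1.36 ± 0.28 SE. All 10 genes that were higher in ergo-1 than in prg-1 were among the members lower without mut-16, which is 100% of the first list and 34.5% of the 29. So were str-150 and str-151, which were lower in ergo-1, so this overlap does not set the 10 genes apart. The same overlap was not counted over all features. Of the 36 coding members tested, 26 were lower, 3 higher and 7 not called. Of the 7 pseudogenes tested, 3 were lower, 1 higher and 3 not called, shares near the 41.8% lower and 13.2% higher of all features.

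**Figure D3:**
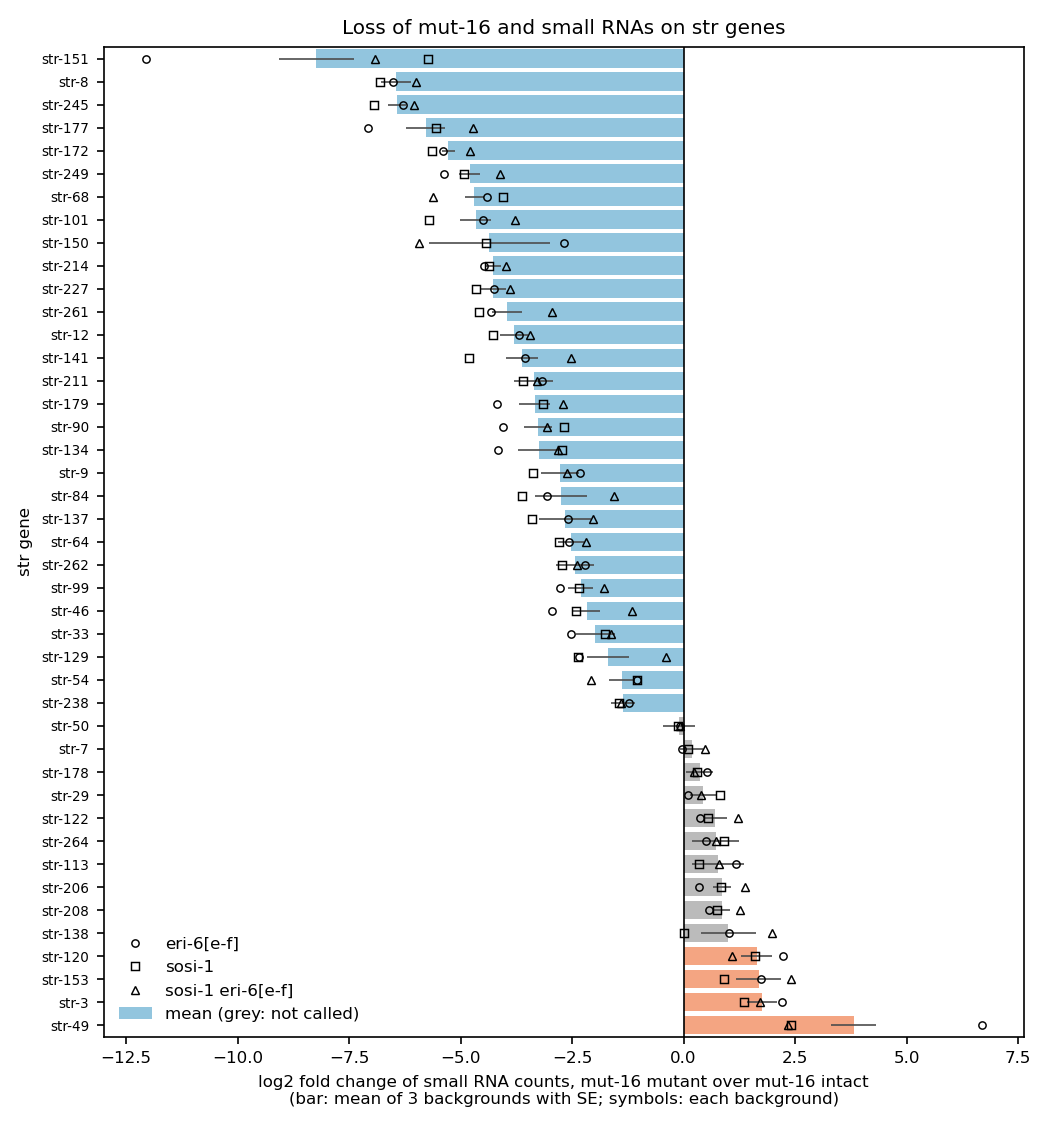
Log2 change of small RNA with loss of mut-16 for the 43 tested str genes, 1 row per gene, with a point for each of the 3 deletion backgrounds and the mean with its SE. Most rows lie left of 0, and the 4 genes higher in the mean lie right of it. The eri-6[e-f] points of str-151, str-177 and str-49 rest on a group with no counts, so these fitted values are no bound on the change.

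Some members had more small RNA without mut-16. The gene str-49, a pseudogene, had no count in the eri-6[e-f] libraries and 0.528, 0.863 and 0.197 CPM with mut-16 mutated, at least 10.7-fold higher. In sosi-1 its log2 change was 2.41 and in the double deletion 2.35. The gene str-3, whose receptor gene is a classic marker of the ASI neurons, had 0, 0.250 and 0.161 CPM in eri-6[e-f] and 0.679, 0.483 and 0.789 CPM with mut-16 mutated. Its mean change over the 3 backgrounds was 1.75 ± 0.34 SE (edgeR adjusted p = 3.08e-05), with all 9 mut-16 libraries above all 9 others. Leaving out sosi-1 replicate 1 or 3, or sosi-1; mut-16 replicate 3, ended the str-3 call in sosi-1 (1.06 to 1.20). The str-3 values were below 1 CPM in every library of the 3 backgrounds and rest on few reads.

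The genes str-120 and str-153 were also higher in the mean, by 1.64 ± 0.34 SE (edgeR adjusted p = 9.32e-05) and 1.68 ± 0.50 SE (edgeR adjusted p = 0.00418). The 9 and 9 libraries did not overlap for str-120 and overlapped for str-153. In the double deletion str-206 and str-208 were higher too, at 1.39 ± 0.36 SE and 1.28 ± 0.30 SE. The libraries of str-208 there were 1.23, 0.782 and 1.24 CPM with mut-16 intact and 2.61, 2.62 and 2.67 CPM without it. In the double deletion the str-153 call, at 2.40, was lost without replicate 1 or 2 of that strain or without replicate 3 of its mut-16 counterpart (1.84 to 2.16).

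Most of these increases were not called under another scaling. When libraries were scaled to their microRNA counts, the median change of all features went from −0.33 to −1.54, so that most features fell. Of the members, 31 were then lower and 1 higher in the mean. Of 15380 features 9914 were called in either direction, against 8467 in the main fit, and their split by direction is not given here. The genes str-3 (0.57), str-120 (0.46) and str-153 (0.47) kept their direction and were not called. The str-49 changes in sosi-1 (1.5) and in the double deletion (1.04) also stayed above 0 and were not called. The genes str-206 and str-208 in the double deletion changed direction, to −0.03 and −0.17. The decreases of the named genes kept their direction under both scalings.

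Of the 10 members not called in the mean, 9 had a change above 0. Among them, str-122, str-206 and str-208, had an adjusted p below 0.05 with a change under 2-fold. No member was called for a difference among the 3 mut-16 changes, where edgeR called 9.58% of all features. One member had an unadjusted p below 0.05, and DESeq2 called 0. Among the deletion strains with mut-16 intact 3 members were called, beside 10.4% of all features. The gene str-245 had means of 7.28 CPM in eri-6[e-f], 11.2 CPM in sosi-1 and 5.45 CPM in the double deletion, a range of 1.05 log2 units (edgeR adjusted p = 0.00131). The call of str-49 (0, 0.166 and 0.117 CPM in the same order, edgeR adjusted p = 0.0424) was lost without any 1 of 7 libraries. Its fitted spans there, 4.64 to 5.19, depend on the prior count because 1 group is at 0. The third was str-151, whose reads are summed with those of str-150 above.

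Between the prg-1 double mutants, 3 members were lower in prg-1; ergo-1 than in prg-1; hrde-1 and 5 were higher, beside 16.7% lower and 6.67% higher of all features. The balance rested on single libraries. It was 2 lower and 6 higher without prg-1; hrde-1 replicate 1, the library that stood apart, but 6 lower and 2 higher without prg-1; hrde-1 replicate 2, and 2 lower and 3 higher without prg-1; ergo-1 replicate 1 or replicate 3. Besides str-151, the lower ones were str-7 and str-172. The gene str-7 had 0.903, 1.11 and 0.903 CPM with hrde-1 mutated and 0.412, 0.172 and 0.464 CPM with ergo-1 mutated, a change of −1.29 ± 0.40 SE (edgeR adjusted p = 0.00835). Scaled to microRNAs it was −0.15 and not called. The str-172 call (−1.15 ± 0.42 SE, edgeR adjusted p = 0.0427) was lost without prg-1; hrde-1 replicate 1 or any 1 of the prg-1; ergo-1 libraries (−1.35 to −0.90). It was also lost with library-size scaling (−1.04) and with no filter (−1.12), and microRNA scaling reversed the str-172 difference to 0.54.

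The 5 higher members are named after their values were seen. They were str-101 at 2.12, str-227 at 2.33, str-249 at 1.93, str-64 at 1.34 and str-177 at 1.03. The gene str-64 had 1.73, 1.89 and 1.80 CPM in prg-1; ergo-1 against 0.645, 0.704 and 0.790 CPM in prg-1; hrde-1. For str-227 only 2 counts stood in the lower strain, a ratio of 5.76 with a 95% counting interval of 1.32 to 52.2. Its call was lost without prg-1; hrde-1 replicate 1 or 2 or prg-1; ergo-1 replicate 1 (1.81 to 2.27), and that of str-249 without prg-1; hrde-1 replicate 2 or prg-1; ergo-1 replicate 3 (1.27 to 1.55). Scaled to microRNAs, 1 member was lower and 13 higher, with the median of all features at 1.16 in place of −0.03. Of 15380 features 2949 were then called in either direction, against 3600 in the main fit, and their split by direction is not given here.

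The family members best known from work on behaviour had very little small RNA. The gene str-1 marks the AWB neurons, str-2 is expressed in 1 of the paired AWC neurons, str-44 has been tied to AWA and AWB, and str-217 to DEET sensitivity through ADL. None of these 4 passed the filter in any comparison. Their highest small RNA values over 30 libraries were 0.206 CPM for str-1, 0.258 CPM for str-2, 0.713 CPM for str-44 and 0.169 CPM for str-217. In the mRNA libraries str-217 had no count, and str-1 and str-2 had 1 count each over 24 libraries. At this depth no difference between strains could be measured for them.

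Many str genes lie next to one another. In the RefSeq annotation of the WBcel235 assembly, used only for gene order, 109 members formed 41 runs of neighbouring members, the longest of 6 genes. In the run of str-173, str-172, str-175, str-174, str-170 and str-166, str-172 was the 1 member tested for small RNA in the second set and was lower without mut-16. In the other run of 6, which starts with str-213, that member was str-211, named after its values were seen. Of the members lower without mut-16, 14 were in runs and 15 were not, and 1 run held more than 1 of them. The genes str-49 and str-50 share a run, and str-49 was higher without mut-16 while str-50, also named after its values were seen, did not pass the test (−0.10 ± 0.36 SE).

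In mRNA the family was dominated by 1 gene. The gene str-176 took 51.8 to 71.2% of the family's CPM in the 24 mRNA libraries, and with str-7, str-146, str-168 and str-245 it made up the 5 members tested. Whole animals were sampled, so fewer cells that express a receptor and less RNA per cell cannot be told apart. Family sums had means of 22.5 CPM in eri-6[e-f] and 14.7 CPM with mut-16 mutated, 13.8 and 19.1 CPM in sosi-1, and 16.3 and 16 CPM in the double deletion. They were 34.3 CPM in prg-1; hrde-1 and 21.2 CPM in prg-1; ergo-1.

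The change of str-176 mRNA with loss of mut-16 differed among the backgrounds. In eri-6[e-f] it went from 16.2, 15.5 and 9.67 CPM to 8.03, 10.1 and 9.69 CPM. In sosi-1 it went from 7.76, 7.05 and 7.67 CPM to 14.4, 10.8 and 11.5 CPM. In the double deletion it was 8.79, 8.59 and 11.5 CPM and then 10.8, 11 and 11.7 CPM. The groups overlapped in eri-6[e-f] and in the double deletion and did not in sosi-1. The log2 changes were −0.57 ± 0.20 SE, 0.70 ± 0.19 SE and 0.22, each under 2-fold, and the test of their difference gave a span of 1.28 (edgeR adjusted p = 0.00126). Its call held without any 1 of the 18 libraries and in each of the other fits run (1.14 to 1.47). The median span of all features was 1.45, and 60.1% of them were called in this test.

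The gene str-168 was the other member called for such a difference, beside 60.1% of all features called in that test. Its mRNA was 0.784, 0.601 and 0.322 CPM in eri-6[e-f] and 0.856, 1.40 and 0.770 CPM with mut-16 mutated. In sosi-1 it was 0.957, 1.36 and 1.03 CPM and then 2.40, 1.67 and 1.49 CPM, and in the double deletion 0.976, 0.719 and 0.968 CPM and then 0.503, 0.663 and 0.826 CPM. The log2 changes were 0.83, 0.72 and −0.38, a span of 1.20 (edgeR adjusted p = 0.0394). The str-168 call was lost without any 1 of 10 of the 18 libraries (0.99 to 1.21), with library-size scaling (0.80) and with the replicate block (1.19).

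The gene str-245 was the 1 tested member with lower mRNA without mut-16 in the mean of the backgrounds. Its mRNA was 3.27, 5.30 and 1.85 CPM in eri-6[e-f] and 1.12, 2.45 and 1.35 CPM with mut-16 mutated. In sosi-1 it was 2.38, 1.16 and 1.42 CPM and then 1.46, 0.731 and 0.919 CPM. In the double deletion it was 1.86, 2.07 and 2.36 CPM and then 0.640, 0.370 and 0.607 CPM, the 1 background where the groups did not overlap. The log2 changes were −1.03 ± 0.38 SE (edgeR adjusted p = 0.0309), −0.71 (edgeR adjusted p = 0.176) and −2.0 ± 0.39 SE (edgeR adjusted p = 7.71e-05). The call in eri-6[e-f] was lost without replicate 1 or 2 of that strain, or replicate 1 or 3 of its mut-16 counterpart (−1.07 to −0.66). The mean was −1.25 ± 0.22 SE (edgeR adjusted p = 3.97e-05), not called with library-size scaling at −0.98, and the 3 changes did not pass the test of their difference (1.29, edgeR adjusted p = 0.0936).

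The gene str-146 was higher without mut-16 in the mean, at 1.10 ± 0.36 SE (edgeR adjusted p = 0.011), a call lost without sosi-1 eri-6[e-f] replicate 2 (0.99). In the mean, 1 of the 5 members was thus lower and 1 higher, beside 4.7% and 13.2% of all features. In eri-6[e-f] 1 was lower, and 0 higher, beside 9.48% and 16.2% of all features, and in the double deletion 1 was lower and 0 higher, beside 22.1% and 28.1%. In sosi-1 edgeR called 0 members, beside 3.22% lower and 10.4% higher of all features, with 3 members at an unadjusted p below 0.05 and 0 called by DESeq2. Sperm markers were higher without mut-16 for 38 of the 42 genes tested in the mean, and the part of sperm RNA in these values was not tested.

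With mut-16 intact, 3 members differed among the deletion strains, beside 57.4% of all features. The gene str-146 had 0.231, 0.581 and 0.293 CPM in sosi-1, 0.0653, 0 and 0.161 CPM in eri-6[e-f] and 0.0874, 0.0232 and 0 CPM in the double deletion, a span of 2.71 (edgeR adjusted p = 0.000298). The gene str-7 spanned 1.39 (edgeR adjusted p = 0.00461), highest in the double deletion, and the call was lost without sosi-1 replicate 1 (0.98). For str-245 the span was 1.03 (edgeR adjusted p = 0.0368), lost without any 1 of 5 of the 9 libraries (0.60 to 1.07).

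**Figure D4:**
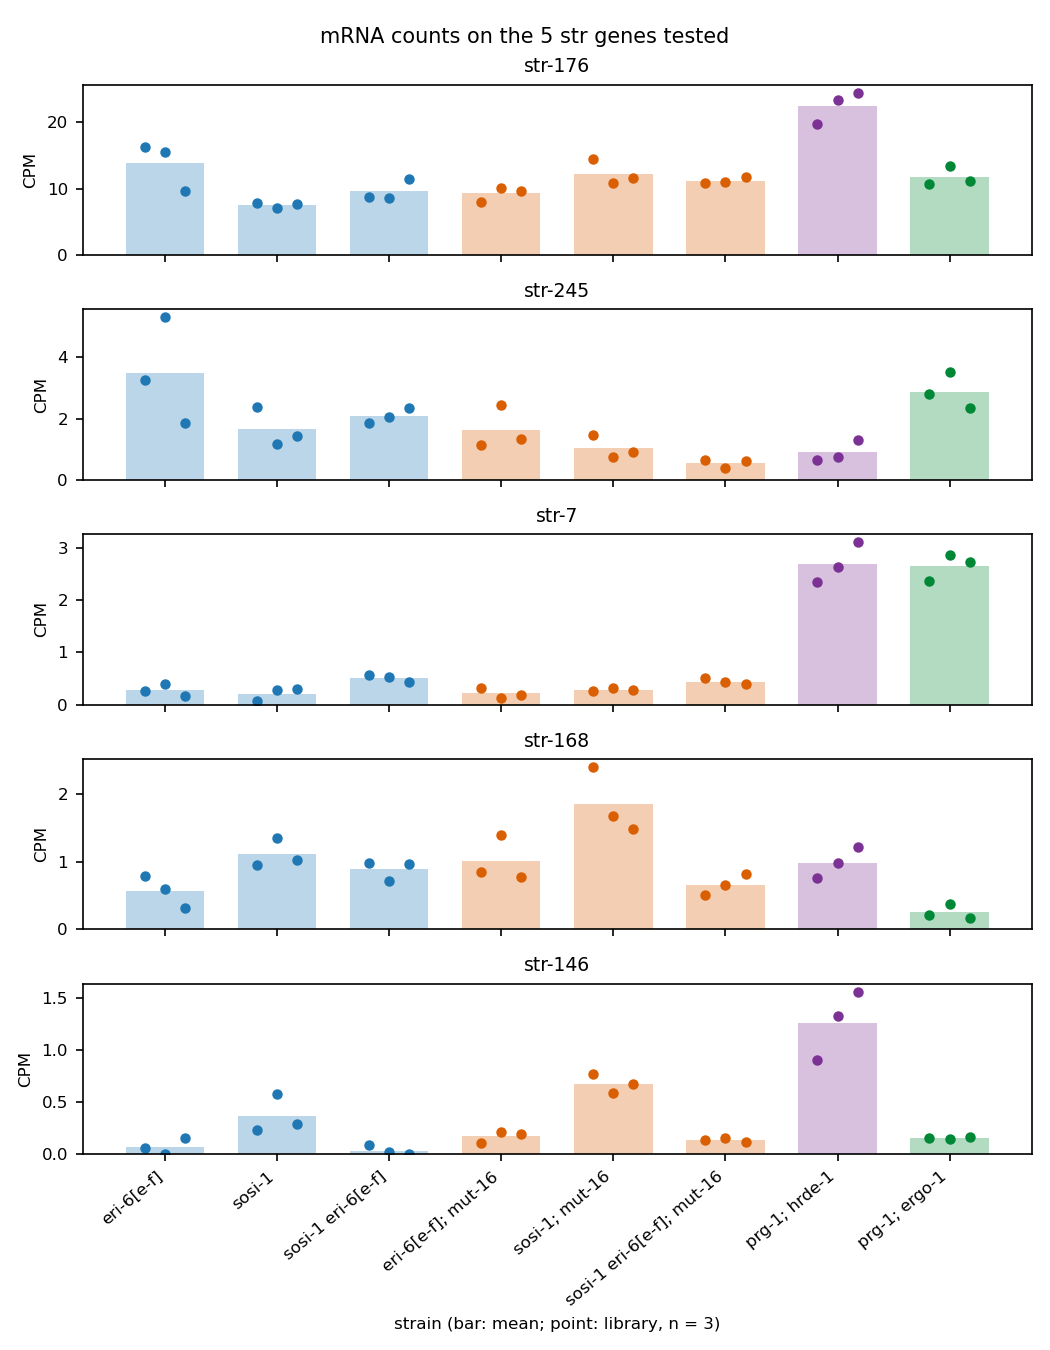
mRNA of the 5 tested str genes in the 8 strains of the second set, in CPM, with 1 point per library and a bar at the mean of 3 libraries. The str-176 panel shows opposite shifts in eri-6[e-f] and sosi-1 with loss of mut-16, and the str-7 panel shows higher values in both prg-1 double mutants.

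Between the prg-1 double mutants 2 of the 5 members had lower mRNA in prg-1; ergo-1 and 1 had higher, beside 24.4% lower and 4.66% higher of all features. The gene str-146 had 0.909, 1.33 and 1.56 CPM in prg-1; hrde-1 and 0.157, 0.146 and 0.165 CPM in prg-1; ergo-1, a change of −2.99 ± 0.39 SE (edgeR adjusted p = 1.93e-06). The change of str-168 was −1.92 ± 0.35 SE (edgeR adjusted p = 9.71e-05), and that of str-245 was 1.67 ± 0.35 SE (edgeR adjusted p = 0.000407). The gene str-176 had 19.7, 23.3 and 24.5 CPM against 10.7, 13.5 and 11.2 CPM, with no overlap and a change under 2-fold (−0.93, edgeR adjusted p = 0.000303). Sperm markers were lower in prg-1; ergo-1 for 21 genes, and their part was not tested.

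The gene str-7 had 2.34, 2.63 and 3.10 CPM of mRNA in prg-1; hrde-1 and 2.35, 2.87 and 2.73 CPM in prg-1; ergo-1, a difference of −0.02 that did not pass the test. In the other 6 strains its means were 0.210 to 0.509 CPM, so both prg-1 double mutants lay above all of them. That contrast was not tested. The mRNA of str-151 was not tested either, since it was near 0. It had 0.0545, 0.106 and 0.161 CPM in prg-1; hrde-1 and 0.0314, 0.0878 and 0.0329 CPM in prg-1; ergo-1. In the other 18 libraries 2 had a str-151 value above 0, of 0.0354 and 0.0146 CPM, and str-150 had an estimated count of 0.5 in all over the 24.

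The gene str-245 is the 1 member with both assays tested and large changes in each. With loss of mut-16 its small RNA changed by −6.43 and its mRNA by −1.25 in the mean of the backgrounds, so both fell. Between the prg-1 double mutants its small RNA difference of −0.43 did not pass the test (edgeR adjusted p = 0.582), while its mRNA was higher in prg-1; ergo-1. The gene str-7 was tested in both assays too, with a small RNA change of 0.18 and an mRNA change of −0.03 with loss of mut-16, neither of which passed the test. Between the double mutants its small RNA was lower in prg-1; ergo-1, except under microRNA scaling, and its mRNA did not pass the test. The str-176, str-168 and str-146 small RNAs were not tested.

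Genes for olfactory and gustatory signalling, which include channels, G proteins, receptor-trafficking genes and factors that set the identity of sensory neurons, were read from a list of 36. In the mean of the backgrounds 24 were tested for small RNA without mut-16, and 13 were lower and 0 higher, beside 41.8% lower and 13.2% higher of all features. The guanylyl cyclase gene odr-1 changed by −6.66, the transcription factor gene mef-2 by −6.27, the claudin-like nsy-4 by −5.05 and the calcineurin gene tax-6 by −4.02. Others of the list rose by less than 2-fold, each with an edgeR adjusted p below 0.05. They were unc-101 at 0.82, odr-4 at 0.63, egl-4 at 0.57, goa-1 at 0.50, odr-8 at 0.45 and arr-1 at 0.31. The genes nsy-4 and tax-6, with the innexin gene inx-19, are known for the choice of which AWC neuron expresses str-2.

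In the first set 18 of these genes were tested, with 0 lower and 5 higher in ergo-1 than in prg-1, a share near the 30.3% higher of all features. They were nsy-4 at 5.25, mef-2 at 4.96, tax-6 at 4.41, inx-19 at 4.08 and odr-1 at 1.96. Between the double mutants 5 of 24 were lower in prg-1; ergo-1, among them the TRPV channel gene osm-9 at −4.54, and 3 higher, beside 16.7% lower and 6.67% higher of all features. In mRNA 27 were tested and edgeR called 0 for loss of mut-16 in the mean, beside 4.7% lower and 13.2% higher. Every gene with an edgeR adjusted p below 0.05 there rose by less than 2-fold, among them nsy-4 (log2 change 0.73) and mef-2 (0.44). For tax-6 the change was −0.29 (edgeR adjusted p = 0.0646). In eri-6[e-f] 1 was lower and 0 higher, beside 9.48% and 16.2% of all features. In sosi-1 edgeR called 0, beside 3.22% and 10.4%. In the double deletion 1 was lower and 7 higher, beside 22.1% and 28.1%. Between the double mutants 4 of the 27 had lower mRNA in prg-1; ergo-1, a smaller share than the 24.4% of all features. They were the G protein alpha subunit genes odr-3 at −1.59, gpa-3 at −1.75 and gpa-2 at −1.24, and the TRPV channel gene ocr-2 at −1.57.

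Of the other chemoreceptor families, 1402 genes, 102 were tested in the first set, and 11 were lower and 76 higher in ergo-1, beside 15.5% and 30.3% of all features. With loss of mut-16, 287 were tested for small RNA, 196 were lower and 38 higher, beside 41.8% and 13.2%, and their median change was −2.41. Summed over all 1402, small RNA did not fall as the str sum did. Its means were 3528 CPM in eri-6[e-f] and 3903 CPM with mut-16 mutated. They were 4621 and 4587 CPM in sosi-1, and 2787 and 3427 CPM in the double deletion. In mRNA 56 were tested, with 8 lower and 2 higher in the mean of the backgrounds, beside 4.7% and 13.2%. Between the double mutants 30 were lower and 37 higher in small RNA, beside 16.7% and 6.67%, and 19 lower and 2 higher in mRNA, beside 24.4% and 4.66%. Of the neuron markers, 13 of 16 tested were lower in small RNA without mut-16 and 0 higher, beside 41.8% and 13.2%. Of those markers' mRNAs, 0 of 18 tested were lower and 1 higher with loss of mut-16, beside 4.7% and 13.2%, and 5 were lower in prg-1; ergo-1 than in prg-1; hrde-1, beside 24.4%. The str genes were not tested against any of these lists.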

How the data were processed

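Small RNA libraries (reads of 75 nt, gel-selected at 18 to 30 nt) and oligo(dT)-selected directional mRNA libraries were used. The values are estimated counts per gene, deposited by the authors. Per the submitters' processing notes cutadapt, HISAT2 and Salmon were used. Versions, genome build, annotation and counting strand were not given in those sources, so antisense and near-identical genes cannot be told apart. Names listed more than once were summed (0.0002121 to 0.03086% of a library's counts on the lesser entries). Gene names matched for 45588 of 45904 and 45682 of 46003 names.

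The expected counts were rounded and fitted in edgeR 4.0.16 (R 4.3.3) with TMM factors, filterByExpr and robust quasi-likelihood tests, 1 term per strain. The 2 sets and both assays were fitted separately. Adjusted p-values are over all features tested, and calls need 0.05 and a 2-fold change. For differences among 3 strains or 3 effects, the span is the highest minus the lowest log2 value. CPM use TMM-scaled library sizes. The scripts were tested on simulated data.

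The members, gene lists and tests were chosen with earlier results of these data known. Named genes were str-151, members known from textbooks, called members with large changes and at least 5 CPM (small RNA) or 0.5 CPM (mRNA), the 5 members with the most CPM, and up to 5 called members that went against the majority. Nearest paralogs by protein were not analysed here. Triplicates are not all stated to be separate cultures, so p-values measure the spread between these samples, which may be technical. Same-numbered libraries of different strains did not deviate together in all replicates (0 of 1, 0 of 28 and 0 of 28 strain pairs), so numbers were not taken as pairs. Alternatives were other scalings (RLE, library size, microRNA counts), no filter, DESeq2 1.42.0, a replicate block, repeated names dropped, and libraries left out.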

Additional observations from a re-analysis of the deposited data

Results flagged for a closer look

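The change of str-176 mRNA with loss of mut-16 differed among the 3 deletion backgrounds by a test of the difference itself, with a span of 1.28 on the log2 scale, lower in eri-6[e-f] and higher in sosi-1. The change of str-168 mRNA also differed among the 3 backgrounds, with a span of 1.20, higher in eri-6[e-f] and sosi-1 and lower in the double deletion. Of all features 60.1% were called in this test, and their median span was 1.45, wider than those of both genes. The str-168 result was lost without any 1 of 10 of the 18 libraries (0.99 to 1.21). No group of libraries was large enough for a test of single outlying values.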

How the results depend on the processing

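Over 15 counts of called members, 48 of 263 settings moved the count by more than 1.5 times. The shares of all features called at these settings are not given, so the counts below describe the settings only. Over 114 results on named genes, 1818 of 1934 settings kept direction and call, 90 lost a call, 11 gained one and 15 reversed. With no filter the small RNA counts were 26 for ergo-1 versus prg-1, 62 for mut-16 in the mean, 3 for the difference of mut-16 changes and 5 among the deletion strains, and the mRNA counts were 2 for mut-16 in eri-6[e-f], 10 in the double deletion, 5 in the mean, 8 among the deletion strains and 11 between the double mutants. Among the deletion strains DESeq2 called 1 small RNA and microRNA scaling 0, and microRNA scaling called 14 between the double mutants. Scaled by library size, mRNA counts were 0 in eri-6[e-f], 2 in the double deletion, 1 in the mean and 1 for the difference of changes, and RLE factors and dropped repeated names each gave 2 in the double deletion. With the replicate block the count of mRNA differences of changes was 1, str-168 (1.19) was not called there, and 4 of 114 named results lost their call. The same-numbered libraries share only a number. Leaving out 1 library gave small RNA counts of 13 to 15 for ergo-1 versus prg-1, 29 to 31, 30 to 35 and 30 to 35 for mut-16 in eri-6[e-f], sosi-1 and the double deletion, 34 to 38 in the mean, 0 to 1 for the difference of changes, 1 to 4 among the deletion strains and 5 to 9 between the double mutants. For mRNA, in the same order from eri-6[e-f], they were 0 to 2, 0 to 1, 1 to 2, 1 to 2, 1 to 2, 2 to 5 and 3 to 6.

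Reversed small RNA values were str-206 (−0.032) and str-208 (−0.17) for mut-16 in the double deletion and str-172 (0.54) between the double mutants, all with microRNA scaling, and str-150 alone in the double deletion without replicate 2 of sosi-1 eri-6[e-f] (3.63, against −9.54 at the lowest with another library left out). Library-size scaling moved the median mRNA change of all features from 0.06 to 0.32 for mut-16 in the mean, from 0.09 to 0.64 in the double deletion and from −0.16 to −0.47 between the double mutants. It reversed str-7 (0.27) and str-168 (0.18) in the double deletion and str-7 in the mean (0.23). The near-zero str-7 mean of −0.03 also came out at 0.12, 0.07, 0.07, 0.07, 0.0013 and 0.00059 without eri-6[e-f] replicate 2, eri-6[e-f]; mut-16 replicate 2, sosi-1 replicate 2, sosi-1 replicate 3, sosi-1 eri-6[e-f] replicate 1 and replicate 3, and its lowest value was −0.20, without sosi-1 replicate 1. Between the double mutants str-7 mRNA came to 0.10 without prg-1; hrde-1 replicate 3 and 0.06 without prg-1; ergo-1 replicate 1, and was lowest at −0.11, without prg-1; hrde-1 replicate 1. The cause of these changes was not tested. Depth limits most members, which had too few counts for a test.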
